A study of Homo sapiens with 8 samples.

Results

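The plasminogen activator system was followed here through 6 genes of the deposited expression table, *PLAU*, *PLAUR*, *PLAT*, *SERPINE2*, *ANXA2* and *S100A16*. They were matched by gene symbol, and the choice was made with earlier results of these data known. All 6 were found among the 13842 genes of the table, and all 6 were tested in each of the 5 comparisons. RNA-seq had been run on MCF10A, an immortalized non-tumorigenic human breast epithelial line, and on DCIS.COM, a line derived from MCF10A that models ductal carcinoma in situ. Each line carried the lentiviral vector pLOC without insert (pLOC-empty) or pLOC with the long non-coding RNA *MALINC1* (pLOC-*MALINC1*), which gave 4 groups of 2 libraries and 8 libraries in all. All cells were stably transduced, selected with blasticidin and harvested from subconfluent plates. The sources used here do not say how many transductions a group came from. The effect of *MALINC1* and other differences between the selected populations therefore cannot be told apart. Below, response and effect mean the difference between pLOC-*MALINC1* and pLOC-empty. MCF10A was grown with horse serum, epidermal growth factor, hydrocortisone, insulin and cholera toxin, and DCIS.COM with horse serum only, so line and medium cannot be told apart. The labels do not say that the 2 libraries of a group came from separate cultures, and p-values therefore measure only the spread between these libraries, which may be technical.

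Plasminogen is an inactive precursor that circulates in blood and is cut to plasmin, a protease that dissolves fibrin, degrades matrix proteins and activates other proteases. *PLAU* encodes the urokinase-type activator (uPA) and *PLAT* the tissue-type activator (tPA), the proteases that make this cut. *PLAUR* encodes the urokinase receptor (uPAR), which holds uPA at the cell surface. Serpins end the reaction by trapping the activators, and *SERPINE2* encodes protease nexin-1, which inhibits uPA, tPA and thrombin. *ANXA2* encodes annexin A2, which with *S100A10* forms a surface complex that binds tPA and plasminogen. *S100A16* encodes another calcium-binding S100 protein and is not a classical component of the system. In breast cancer, uPA is known as a prognostic marker. PAI-2 (*SERPINB2*) and other partners are given beside the 6 genes where a comparison needs them.

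The promoters are shown because the study followed the transcription factor AP-1. Its consensus sites TGAGTCA and TGACTCA are covered by the looser pattern TGANTCA. The 250 bases before the start of each gene's canonical transcript were read from GRCh37 (hg19). They were searched for this pattern and for the GC box GGGCGG on both strands. TGANTCA was present in the windows of *PLAUR* and *ANXA2*, and it was found in 3.67% of the windows of 12370 coding genes of the table. The GC box is common, with 71.5% of those windows, and occurred 3 times in *PLAU*, 3 times in *ANXA2*, 4 times in *SERPINE2* and 1 time in *PLAT*. The TGANTCA letters and the GC boxes are in capitals below. For *PLAU* and *SERPINE2* the stretch of the window outside annotated exons is printed. The windows of *PLAUR* and *ANXA2* lie within exons of other transcripts of these genes, and 29 bases around the site are given.
*PLAU*, chr10:75670640-75670861, plus strand: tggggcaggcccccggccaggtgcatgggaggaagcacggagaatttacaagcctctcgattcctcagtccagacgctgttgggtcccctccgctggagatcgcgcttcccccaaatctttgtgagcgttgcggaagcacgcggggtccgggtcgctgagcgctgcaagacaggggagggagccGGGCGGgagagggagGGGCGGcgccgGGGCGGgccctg
*SERPINE2*, chr2:224904036-224904253, minus strand: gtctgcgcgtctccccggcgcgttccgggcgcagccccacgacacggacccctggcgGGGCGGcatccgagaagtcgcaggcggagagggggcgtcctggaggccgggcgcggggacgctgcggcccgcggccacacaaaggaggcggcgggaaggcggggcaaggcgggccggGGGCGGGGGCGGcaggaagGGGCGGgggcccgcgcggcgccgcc
*PLAUR*, chr19:44174490-44174518, minus strand: tcacaactccaTGAGTCAgggccgagcca
*ANXA2*, chr15:60690295-60690323, minus strand: gcgggccggggTGAGTCAcccctgacttg
The *PLAUR* site began 186 bases before the transcript start and the *ANXA2* site 127 bases before it. No TGANTCA was found in the windows of *PLAU*, *PLAT*, *SERPINE2* or *S100A16*, which says only that these letters are not in those 250 bases. *SERPINB2* held a match as well, 102 bases before its start on chromosome 18, which reads TGAATCA and so fits only the looser pattern:
*SERPINB2*, chr18:61554826-61554854, plus strand: gagtaaaatgtTGAATCActcaaaggaca
A match describes the sequence and is not evidence of binding.

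The reads counted on genes ranged from 20604377 to 37550457 per library. Values are CPM (read counts of a gene relative to the size of its library) after the authors' scaling, and a gene without reads would stand at 0.0713 CPM. *MALINC1* itself had 1.07 and 1.58 CPM in MCF10A pLOC-empty and 13.3 and 11.8 CPM with pLOC-*MALINC1*. The DCIS.COM libraries had 1.42 and 1.22 CPM with pLOC-empty and 24.5 and 19.2 CPM with pLOC-*MALINC1*. All libraries thus matched their labels for the vector, while *MALINC1* gives no check of the line. All 9 basal epithelial markers were detected. Between the pLOC-empty groups, *KRT5*, *KRT17*, *CDH1*, *CDH3* and *EGFR* were lower in DCIS.COM than in MCF10A. *EPCAM* (mean 280 against 62.3 CPM) and *ITGA6* (1823 against 1142 CPM) were higher there. *KRT14* was at 1424 to 2954 CPM in MCF10A and at 21.2 to 33.7 CPM in DCIS.COM, and *TP63* stood at 4.68 and 5.31 CPM in MCF10A pLOC-empty against 40.2 to 57.5 CPM in the other 6 libraries. The 9 summed to 19847 to 20001 CPM in MCF10A pLOC-empty, 27166 to 27854 in MCF10A pLOC-*MALINC1*, 4650 to 4792 in DCIS.COM pLOC-empty and 5226 to 5511 in DCIS.COM pLOC-*MALINC1*. The sums of 6 of 7 luminal markers follow in the same order of groups. They were 1290 to 1387, 1565 to 1656, 3454 to 3502 and 3252 to 3329 CPM. Most of each sum came from *KRT8* and *KRT18*. Over the 8 libraries *ESR1* was at 1.80 to 3.92 CPM, *KRT19* at 1.41 to 3.75, *GATA3* at 6.04 to 9.92 and *FOXA1* at 8.66 to 35.2. Of 7 fibroblast markers only *COL1A1* was analysed, at 15.2 to 15.9, 6.68 to 7.45, 1.98 to 2.08 and 1.58 to 1.67 CPM. The sum of *CD14* and *CD68*, analysed of 6 leukocyte markers, was 14.2 to 14.4, 13.1 to 13.9, 4.25 to 4.34 and 8.03 to 8.27 CPM. *PECAM1*, analysed of 4 endothelial markers, was at 1.05 to 1.11, 0.751 to 0.879, 6.13 to 7.28 and 0.159 to 0.249 CPM. The part of these marker differences in the results below was not tested.

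The activators changed with *MALINC1* differently in the lines. In MCF10A both rose, *PLAT* by 4.54-fold and *PLAU* by 1.50-fold. In DCIS.COM *PLAU* fell by a factor of 1.32, and *PLAT* did not pass the test. *PLAT* (chr8:42032236-42065227, minus strand, 14 exons in the canonical transcript) was at 7.07 and 7.24 CPM in MCF10A pLOC-empty and at 31.7 and 33.2 CPM with pLOC-*MALINC1*. The DCIS.COM libraries held 265 and 271 CPM with pLOC-empty and 235 and 247 CPM with pLOC-*MALINC1*. Every DCIS.COM library was above every MCF10A library. In MCF10A the log2 fold change was 2.18 (standard error 0.043, adjusted p = 1.02e-11 by limma with Benjamini-Hochberg adjustment over all genes), the second smallest p-value of the table. In DCIS.COM it was -0.15 (standard error 0.043, adjusted p = 0.0113), short of the threshold of 0.01, and 7 of 19 alternative settings brought it below that threshold. Of these settings, dropping the filter and repeating a trimmed-mean scaling gave the main fit again, and some others could not move the log2 fold change.

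*PLAU* (chr10:75668935-75677254, plus strand, 11 exons) was at 141 and 140 CPM in MCF10A pLOC-empty and at 207 and 215 CPM with pLOC-*MALINC1*. DCIS.COM had 30.8 and 28.4 CPM with pLOC-empty and 22.0 and 22.6 CPM with pLOC-*MALINC1*. Here the order of the lines was the reverse of that of *PLAT*, with every MCF10A library above every DCIS.COM library. In MCF10A the log2 fold change with *MALINC1* was 0.59 (standard error 0.046, adjusted p = 4.94e-07). The DCIS.COM value was -0.40 (standard error 0.046, adjusted p = 1.59e-05). All 19 alternative settings kept both directions and both calls, although not all of them could differ from the main fit. An antisense lncRNA gene, *C10orf55*, covers 429 bases of the *PLAU* exons, and the strand setting of the counting is not given in the sources used here. *C10orf55* had 11 to 54 reads per library and *PLAU* 593 to 7425.

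The receptor of uPA rose in MCF10A and did not pass the test in DCIS.COM. *PLAUR* (chr19:44150247-44174699, minus strand, 7 exons) was at 34.8 and 38.2 CPM in MCF10A pLOC-empty and at 60.7 and 65.3 CPM with pLOC-*MALINC1*. The levels in DCIS.COM were 37.5 and 38.7 CPM with pLOC-empty and 36.9 and 39.0 CPM with pLOC-*MALINC1*. The MCF10A pLOC-*MALINC1* libraries thus stood above the other 6, which lay between 34.8 and 39.0 CPM. *PLAUR* rose by 1.73-fold in MCF10A (log2 fold change 0.79, standard error 0.058, adjusted p = 3.33e-07). Its DCIS.COM log2 fold change was -0.0068 with a 95% confidence interval of -0.13 to 0.12 (adjusted p = 0.938), and its sign changed with the library totals used and with 2 of the libraries left out.

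**Figure D1:**
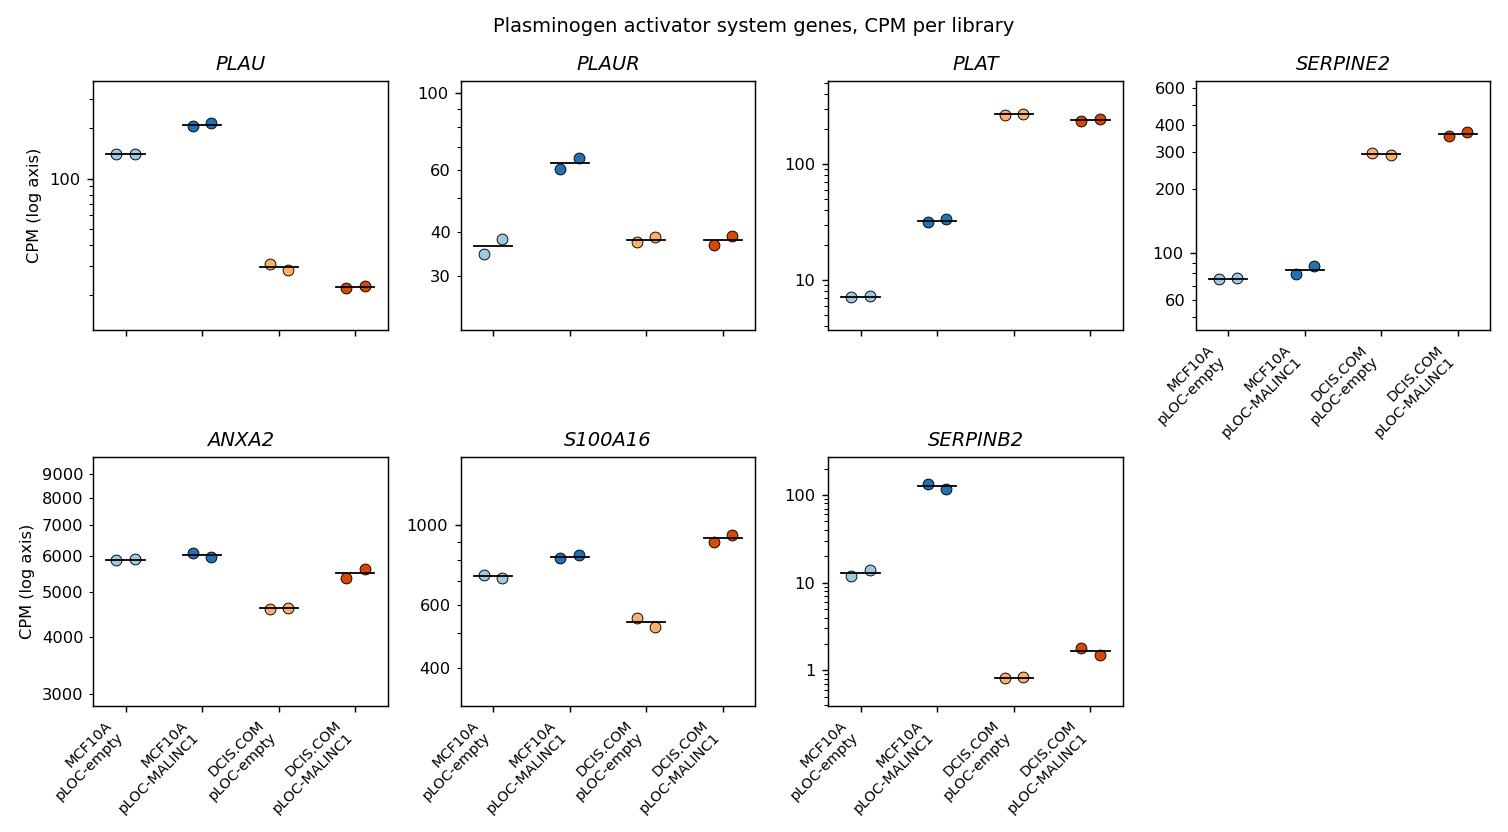
Levels of the 6 genes and of *SERPINB2* in CPM on log axes that differ between panels. Each point is a library, each bar the mean of the 2 libraries of a group, and the groups are MCF10A and DCIS.COM with pLOC-empty or pLOC-*MALINC1*. *PLAT* was at 7.07 to 33.2 CPM in MCF10A and at 235 to 271 CPM in DCIS.COM, while *PLAU* showed the reverse order of the lines.

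Among the inhibitors, *SERPINE2* rose with *MALINC1* in DCIS.COM and *SERPINB2* in both lines. *SERPINE2* (chr2:224839762-224904035, minus strand, 9 exons) was at 74.9 and 76.2 CPM in MCF10A pLOC-empty and at 79.9 and 86.8 CPM with pLOC-*MALINC1*. The DCIS.COM levels were 295 and 289 CPM with pLOC-empty and 355 and 373 CPM with pLOC-*MALINC1*. The DCIS.COM libraries were all above those of MCF10A. *SERPINE2* rose by 1.25-fold in DCIS.COM (log2 fold change 0.32, standard error 0.042, adjusted p = 6.07e-05). In MCF10A the log2 fold change was 0.14 (standard error 0.042, adjusted p = 0.0142). It passed the threshold without the first MCF10A pLOC-*MALINC1* library (0.20, adjusted p = 0.00378).

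*SERPINB2*, which encodes the mostly intracellular uPA inhibitor PAI-2, went from 11.97 and 14.06 CPM to 133 and 118 CPM in MCF10A, a rise of 9.65-fold (adjusted p = 1.62e-09). In DCIS.COM it was low, at 0.82 and 0.84 CPM with pLOC-empty and at 1.82 and 1.49 CPM with pLOC-*MALINC1* (log2 fold change 0.99, standard error 0.13, adjusted p = 5.78e-05). With voom weights, a limma method for counts, this last call was lost (adjusted p = 0.0394), as it was in a fit of the DCIS.COM groups alone.

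*ANXA2* and *S100A16*, the most abundant of the 6 genes per transcript length, both rose in DCIS.COM. *ANXA2* (chr15:60639333-60695082, minus strand, 13 exons) was at 5864 and 5885 CPM in MCF10A pLOC-empty and at 6068 and 5941 CPM with pLOC-*MALINC1*. DCIS.COM stood lower, at 4596 and 4619 CPM with pLOC-empty and at 5354 and 5616 CPM with pLOC-*MALINC1*. The rise in DCIS.COM was 1.19-fold (log2 fold change 0.25, standard error 0.047, adjusted p = 9.48e-04). The call was lost without the first or the second DCIS.COM pLOC-empty library (adjusted p = 0.0188 and 0.0176) and when only the groups of that line were fitted (adjusted p = 0.0412). In MCF10A the log2 fold change was 0.031 (95% confidence interval -0.072 to 0.13, adjusted p = 0.606). Its sign changed with library totals that left out *RN7SL1*, *RN7SL2* and the authors' scaling factors.

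*ANXA2* has a processed pseudogene copy on chromosome 9, *ANXA2P2*, and 27.7% of the 76-nt stretches of the *ANXA2* transcript occur in it exactly. Of the stretches of *ANXA2P2*, 43.3% occur in *ANXA2* transcripts. Reads from either gene may therefore have been assigned to the other, and how many was not tested. As *ANXA2P2* is far lower than *ANXA2*, such reads could weigh much more on its values than on those of *ANXA2*. *ANXA2P2* was at 88.7 and 82.5 CPM in MCF10A pLOC-empty and at 80.8 and 85.4 CPM with pLOC-*MALINC1*. Its levels in DCIS.COM were lower with the empty vector, at 70.7 and 79.0 CPM with pLOC-empty and at 93.7 and 90.7 CPM with pLOC-*MALINC1*. It rose in DCIS.COM by 0.30 on the log2 scale (standard error 0.055, adjusted p = 7.20e-04), and the MCF10A value was -0.042 (adjusted p = 0.544).

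*S100A16* (chr1:153579362-153585621, minus strand, 3 exons) was at 726 and 714 CPM in MCF10A pLOC-empty and at 808 and 827 CPM with pLOC-*MALINC1*. In DCIS.COM the level was 553 and 519 CPM with pLOC-empty and 900 and 941 CPM with pLOC-*MALINC1*. The DCIS.COM pLOC-*MALINC1* libraries were the highest of the 8. *S100A16* rose by 1.72-fold in DCIS.COM (log2 fold change 0.78, standard error 0.038, adjusted p = 1.09e-08). Its rise in MCF10A was 1.14-fold (0.18, standard error 0.038, adjusted p = 0.00159). The MCF10A call did not hold under quantile normalization (adjusted p = 0.0202), in a fit of the MCF10A groups alone (0.0106), or without the second MCF10A pLOC-empty library (0.0176) or the second MCF10A pLOC-*MALINC1* library (0.0181). *S100A10*, the annexin A2 partner, was not called in either line. It differed by 0.041 in MCF10A (adjusted p = 0.331), and the DCIS.COM difference was -0.068 (adjusted p = 0.119).

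In MCF10A, then, 4 of the 6 genes rose with *MALINC1* and 0 fell, where 21.5% of all genes rose, 18.1% fell and 39.6% changed in either direction. In DCIS.COM 3 rose and 1 fell, where 16.4% of all genes rose, 16.7% fell and 33.2% changed. Among the 6 genes only *PLAT*, and only in MCF10A, also changed over 2-fold, as did 5.5% of all genes in MCF10A and 4.53% in DCIS.COM. The median log2 fold change of the 6 genes was 0.39 in MCF10A and 0.12 in DCIS.COM. Over all genes the median was 0.0089 in DCIS.COM, and in MCF10A it did not differ from 0 beyond rounding.

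**Figure D2:**
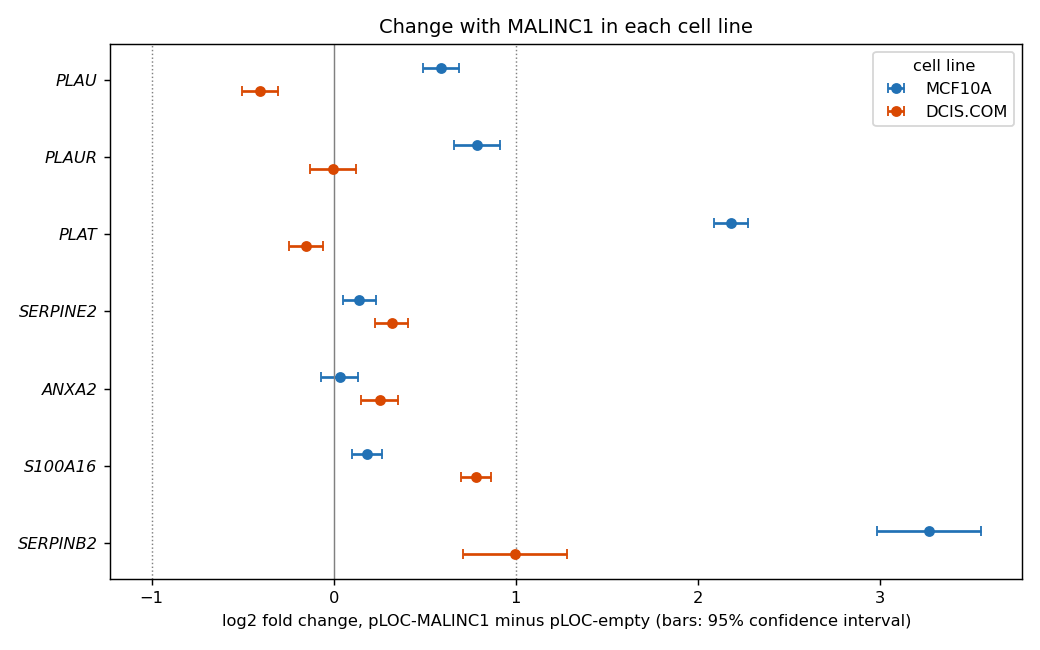
Change of each gene with *MALINC1* on the log2 scale in MCF10A and DCIS.COM, with bars for the 95% confidence interval from limma and dotted lines at a 2-fold change. The intervals of *PLAU* lie on opposite sides of 0 in the lines (0.59 and -0.40), and so do those of *PLAT* (2.18 and -0.15), although *PLAT* did not pass the test in DCIS.COM.

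The response to *MALINC1* differed between the lines for 4 of the 6 genes in a test of the difference itself, being higher in DCIS.COM for 1 and lower for 3, where 35.9% of all genes differed, 15.6% higher and 20.3% lower. The effect in DCIS.COM minus that in MCF10A was -2.33 for *PLAT* (standard error 0.061, adjusted p = 6.25e-11), -0.99 for *PLAU* (0.064, adjusted p = 1.13e-07) and -0.79 for *PLAUR* (0.082, adjusted p = 7.03e-06) on the log2 scale. For *S100A16* it was 0.60 (standard error 0.054, adjusted p = 2.38e-06), that is, a larger rise in DCIS.COM. *PLAT* alone of the 6 differed over 2-fold, as did 9.2% of all genes. Activators and receptor thus had the more positive response in MCF10A. For *ANXA2* the difference was 0.22 (adjusted p = 0.0169) and for *SERPINE2* 0.18 (adjusted p = 0.0260), and neither passed. Leaving out 1 library could move them past the threshold: the first DCIS.COM pLOC-*MALINC1* library for *ANXA2* (adjusted p = 0.00920) and the second MCF10A pLOC-*MALINC1* library for *SERPINE2* (adjusted p = 0.00608). For the inhibitor *SERPINB2* the difference was -2.28 (adjusted p = 8.82e-07).

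The lines differed in 5 of the 6 genes. With pLOC-empty, *PLAT* was 37.4-fold higher in DCIS.COM than in MCF10A (log2 fold change 5.23, standard error 0.043, adjusted p = 9.31e-17) and *SERPINE2* 3.87-fold higher (1.95, standard error 0.042, adjusted p = 4.06e-13). *PLAU* was 4.75-fold lower in DCIS.COM (-2.25, standard error 0.046, adjusted p = 2.40e-13). These 3 genes were also past 2-fold, as were 28.6% of all genes. *S100A16* was 1.34-fold lower (adjusted p = 3.63e-07) and *ANXA2* 1.27-fold lower (adjusted p = 1.81e-05), although *ANXA2* was higher in DCIS.COM after quantile normalization (0.36). *PLAUR* did not pass, with a log2 difference of 0.062 and a 95% confidence interval of -0.065 to 0.19 (adjusted p = 0.337). In all, 2 of the genes were higher and 3 lower in DCIS.COM, where 73.9% of all genes passed, 37.9% higher and 36% lower.

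Between the pLOC-*MALINC1* groups, the gap of *PLAT* was 7.41-fold (log2 fold change 2.89, adjusted p = 2.62e-14) and that of *PLAU* 9.45-fold (-3.24, adjusted p = 1.54e-14). *PLAUR* was then 1.66-fold lower in DCIS.COM (-0.73, standard error 0.058, adjusted p = 1.13e-07) and *SERPINE2* 4.37-fold higher (2.13, adjusted p = 2.27e-13). *S100A16* was 1.13-fold higher in DCIS.COM (0.17, adjusted p = 0.00124), a call lost without the first MCF10A pLOC-*MALINC1* library (adjusted p = 0.0138) or the second DCIS.COM pLOC-*MALINC1* library (adjusted p = 0.0156). *ANXA2* did not pass (-0.13, adjusted p = 0.0228). Its sign changed under quantile normalization and under library totals that left out *RN7SL1*, *RN7SL2* and the authors' scaling factors. Of the 6 genes 3 were higher and 2 lower, where 73% of all genes passed, 35.7% higher and 37.2% lower. *PLAT*, *PLAU* and *SERPINE2* were again past 2-fold, as were 26.6% of all genes. *S100A10* was 2.62-fold lower in DCIS.COM than in MCF10A with pLOC-empty and 2.83-fold lower with pLOC-*MALINC1*.

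To set the genes beside each other, CPM were divided by the length of each gene's canonical transcript in kb. Annexin A2 was the highest in every group, from 2965 ± 10.5 CPM per kb (SD, n = 2) in DCIS.COM pLOC-empty to 3864 ± 57.9 in MCF10A pLOC-*MALINC1*. In MCF10A pLOC-empty it was followed by *S100A16* (614 ± 7.38), *PLAU* (59.8 ± 0.293), *SERPINE2* (34.0 ± 0.411), *PLAUR* (26.7 ± 1.78), *SERPINB2* (6.83 ± 0.777) and *PLAT* (2.34 ± 0.0399), and no neighbours in this order overlapped. In DCIS.COM pLOC-empty the order after *ANXA2* was *S100A16* (457 ± 20.6), *SERPINE2* (131 ± 1.84), *PLAT* (87.4 ± 1.32), *PLAUR* (27.8 ± 0.628), *PLAU* (12.6 ± 0.718) and *SERPINB2* (0.434 ± 0.00652), again without overlap of neighbours.

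With pLOC-*MALINC1* in MCF10A, *SERPINB2* reached 65.8 ± 5.65 CPM per kb and stood between *PLAU* (90.1 ± 2.47) and *PLAUR* (46.0 ± 2.40), while *PLAT* was still the lowest (10.6 ± 0.350). In DCIS.COM pLOC-*MALINC1* the order was that of DCIS.COM pLOC-empty, with *SERPINE2* at 164 ± 5.64, *PLAT* at 78.6 ± 2.64, *PLAUR* at 27.7 ± 1.09 and *PLAU* at 9.53 ± 0.178. The choice of length matters for these orders. With the length of all annotated exons of a gene in place of the canonical transcript, *S100A16* was above *ANXA2* in DCIS.COM pLOC-*MALINC1*, *PLAT* was above *SERPINE2* and *PLAU* above *PLAUR* in DCIS.COM pLOC-empty.

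Per length, *PLAT* made up 3.70% and 3.82% of the summed *PLAU* and *PLAT* levels in MCF10A pLOC-empty and 10.5% and 10.6% with pLOC-*MALINC1*. In DCIS.COM its share was 86.8% and 87.9% with pLOC-empty and 89.1% and 89.3% with pLOC-*MALINC1*. MCF10A was thus a line with mostly *PLAU* transcripts and DCIS.COM a line with mostly *PLAT* transcripts. With the length of all annotated exons the share was 1.87% and 1.93% in MCF10A pLOC-empty, 5.50% and 5.54% in MCF10A pLOC-*MALINC1* and 76.6% to 80.5% in DCIS.COM. The ratio of *PLAU*, the ligand, to its receptor *PLAUR* was 2.36 and 2.13 in MCF10A pLOC-empty and 1.99 and 1.92 with pLOC-*MALINC1*. In DCIS.COM it was 0.479 and 0.428 with pLOC-empty and 0.349 and 0.339 with pLOC-*MALINC1*. The ratio was thus lower in every DCIS.COM library than in every MCF10A library, and its size depends on the length used, being 4.98 to 6.11 in MCF10A and 0.877 to 1.24 in DCIS.COM with all annotated exons. These ratios are of transcripts, and protein or enzyme activity was not measured in these files.

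**Figure D3:**
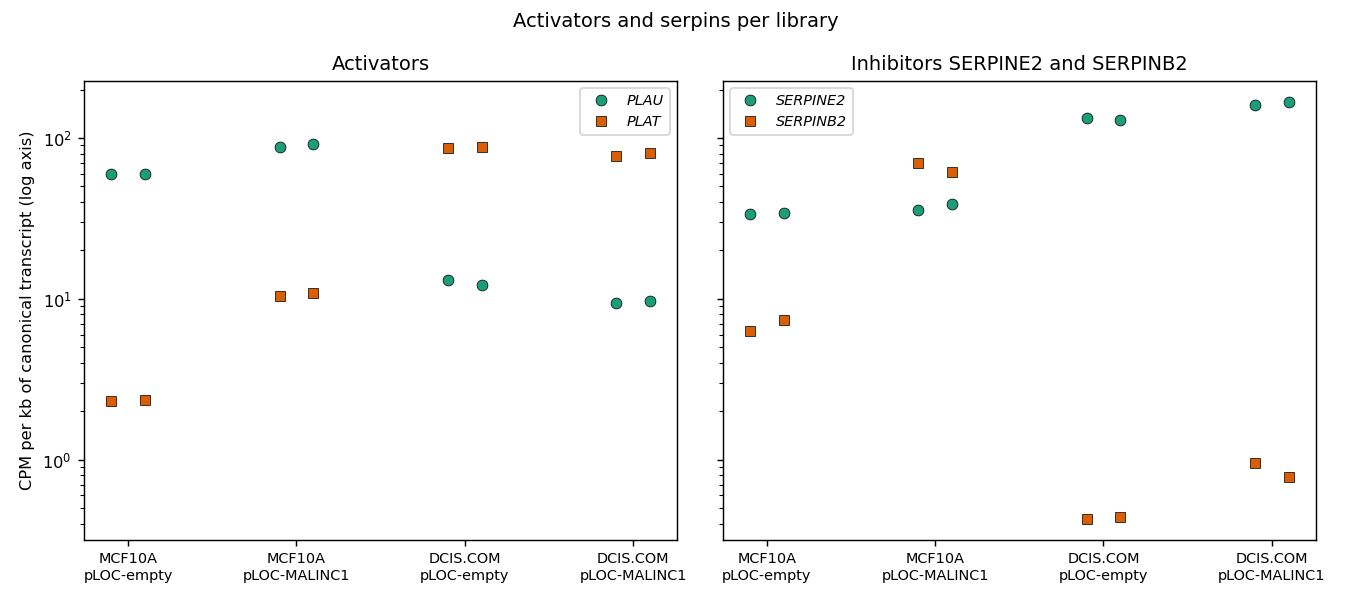
Activators (left) and the inhibitors *SERPINE2* and *SERPINB2* (right) in CPM per kb of canonical transcript, on a shared log axis, with a point per library. *PLAT* stands above *PLAU* in the DCIS.COM libraries and below it in those of MCF10A, and *SERPINB2* (65.8 CPM per kb) stands above *SERPINE2* (37.4) in MCF10A pLOC-*MALINC1* and below it in the other 3 groups.

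Other genes of the pathway were taken from 5 lists, of which 34 of 44 genes were analysed. With *MALINC1*, 12 of the 34 rose and 9 fell in MCF10A, where 21.5% of all genes rose and 18.1% fell. In DCIS.COM 5 rose and 10 fell, beside 16.4% and 16.7% of all genes. The counts of the single lists are small and are to be read against the same shares, and no list was tested against other genes. Plasminogen itself (*PLG*) was not analysed here. Of 6 inhibitors given here, 2 rose and 1 fell in MCF10A, and 1 rose and 1 fell in DCIS.COM, which is near the shares over all genes. *SERPINA5*, the protein C inhibitor that also inhibits uPA, fell in both lines, by 1.25 in MCF10A (adjusted p = 1.12e-07) and by 0.74 on the log2 scale in the other line (adjusted p = 1.20e-05).

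The list of endocytic receptors that take up activator and inhibitor complexes also holds *LRPAP1*, which encodes a receptor-associated protein and not a receptor. Of its 7 genes, 5 were higher with *MALINC1* in MCF10A and 0 lower, beside 21.5% and 18.1% of all genes, with a median log2 fold change of 0.62. They included *LRP1*, the main clearance receptor of uPA and inhibitor complexes (0.80, adjusted p = 5.40e-06), and *SORL1*, a sorting receptor (1.20, adjusted p = 6.93e-07). In DCIS.COM 2 of the 7 rose and 2 fell (16.4% and 16.7% of all genes), with *LRP1* at 0.55 (adjusted p = 1.46e-04).

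Of the 11 uPAR partners and ligands, 2 rose and 7 fell in MCF10A (21.5% and 18.1% of all genes), and 1 rose and 4 fell in DCIS.COM (16.4% and 16.7%). *ITGB2*, the leukocyte integrin beta 2 chain, fell in both lines, from a level of 30.7 and 6.27 CPM with pLOC-empty. On the log2 scale it fell by 2.03 in MCF10A (adjusted p = 1.92e-07) and by 3.69 in the other line (adjusted p = 1.19e-09). In DCIS.COM pLOC-*MALINC1* it had only 15 and 13 reads, so the size of that fall is uncertain. Of 7 genes for proteases that activate pro-uPA and for their inhibitors, 3 rose and 1 fell in MCF10A, and 1 rose and 2 fell in DCIS.COM, the latter near the shares over all genes. In MCF10A *TMPRSS4*, a transmembrane serine protease, rose by 1.71 (adjusted p = 1.72e-07), from a mean of 9.91 to 32.4 CPM. *F12*, coagulation factor XII, rose by 1.13 (adjusted p = 9.11e-07), from 4.29 to 9.39 CPM. They are named for passing 2-fold, which the gene that fell there did not. Of 3 genes for plasminogen receptors, 0 were called in MCF10A and 1 fell in DCIS.COM, and *PLGRKT*, a membrane receptor that binds plasminogen, was not called in either line (0.18, adjusted p = 0.0951, and -0.087, adjusted p = 0.446).

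**Figure D4:**
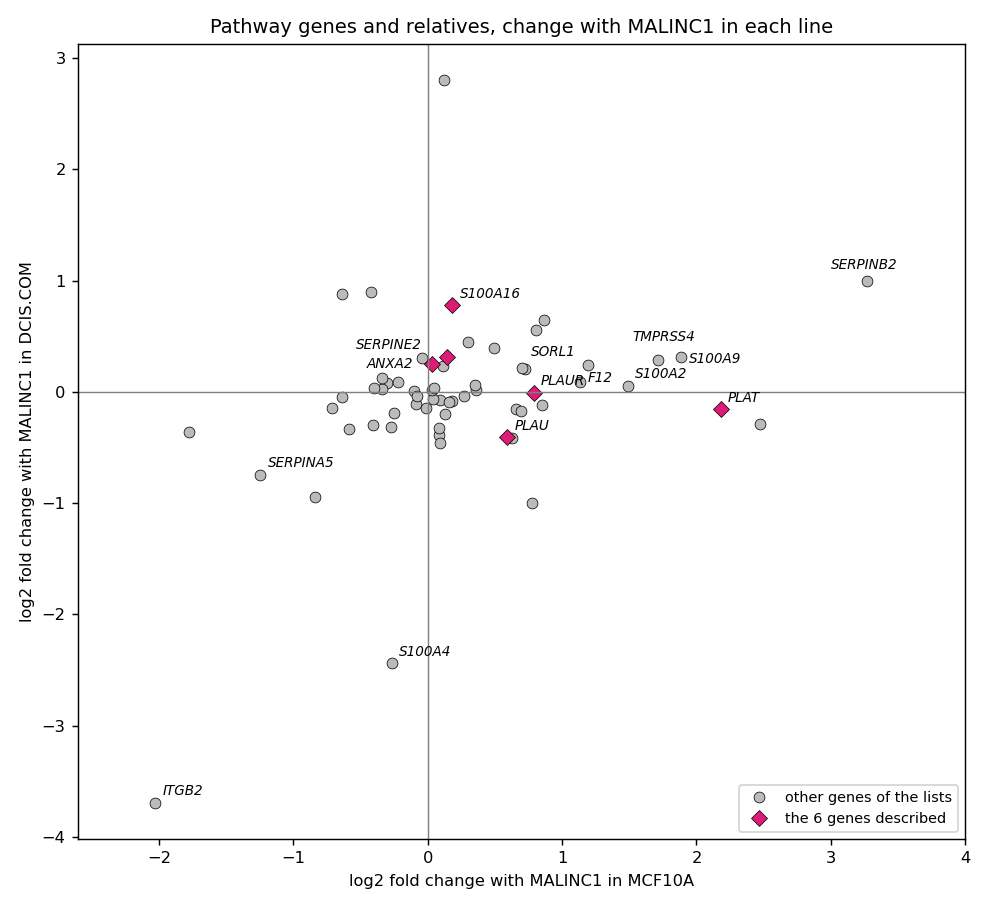
Log2 fold change with *MALINC1* in MCF10A (horizontal) and DCIS.COM (vertical) for the genes of the 5 pathway lists, other annexins, other S100 genes and *ANXA2P2* (grey) and the 6 genes described (diamonds). *PLAT* and *SERPINB2* lie far to the right, and *ITGB2* lies low on both axes (-2.03 and -3.69).

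Genes with a like pattern over the 8 libraries were sought among 10768 genes with a mean of at least 5 CPM, by the root mean square difference of log2 CPM after each gene was centred on its own mean. The nearest to *PLAU* were *CPA4* (0.14), *ABCA12* (0.15) and *NT5E* (0.17). The nearest to *PLAT* were *EREG*, which encodes the growth factor epiregulin (0.14), *SGCE* (0.16) and *KCNS3* (0.25). For *PLAUR* they were *ZC3H8*, *YRDC* and *STK40* (0.079 to 0.086), for *SERPINE2* *AKR1C2*, *KCNN4* and *EMC10* (0.056 to 0.095), for *ANXA2* *SMARCC1*, *CTNND1* and *CLCN7* (0.023 to 0.029), and among the nearest to *S100A16* were *IL6R* (0.079) and *ATG16L1* (0.10). Small differences are easier to reach for genes that vary little, such as *ANXA2*, so the values are not compared between the 6 genes.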

How the data were processed

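RNA-seq libraries of transduced MCF10A and DCIS.COM cells were analysed. Per the labels and the study's methods, RNA libraries were read as 76 nt pairs, mapped by Rsubread (genome hg19) and assigned to UCSC known genes by featureCounts. The strand setting, the filter and the tool versions are not given in the sources used here. The authors deposited log2 CPM that they had scaled with edgeR. The values were found to hold a prior count of 2 reads, and 100% of them gave whole reads within 0.05.

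Linear models were fitted to them in R 4.3.3 by limma 3.58.1 (4 group means over 8 libraries, trended prior, Benjamini-Hochberg adjustment over the 13842 genes at 0.5 CPM or more in 2 libraries). Genes were called at an adjusted p below 0.01. The steps were tested on simulated data with planted changes of at least 2-fold, so smaller changes were not covered. Coordinates are of GRCh37 with GENCODE annotation. Named partners were the list genes called and past 2-fold with at least 5 CPM, plus *SERPINB2*, *PLG*, *S100A10*, *PLGRKT*, *LRP1* and *ANXA2P2*, and a few genes that these choices cover are not reported here. The 6 genes and the lists were chosen with earlier results of these data known. Alternatives changed scaling, pseudocount, filter, model and threshold, and left out each library in turn. Replicate numbers did not pair the libraries.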

Additional observations from a re-analysis of the deposited data

Results flagged for a closer look

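The response to *MALINC1* differed between DCIS.COM and MCF10A, by limma's test of the difference itself, for 4 of the 6 genes and for the further serpin *SERPINB2*. As the effect in DCIS.COM minus that in MCF10A on the log2 scale, the difference was -2.33 for *PLAT*, -0.99 for *PLAU*, -0.79 for *PLAUR* and 0.60 for *S100A16*. For *SERPINB2* it was -2.28. *PLAU* changed sign between the lines, past the threshold in both. Line, culture medium and the level of *MALINC1* reached cannot be told apart in these differences. With pLOC-*MALINC1* its mean was 12.6 CPM in MCF10A and 21.9 CPM in DCIS.COM. With 2 libraries in each group, no library could be tested for standing apart from its group.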

How the results depend on the processing

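The number of the 6 genes called stayed within 1.5 times the main count in every comparison on leaving out any library and under all alternatives but the demand for a change over 2-fold. That demand left 1 of 4 in MCF10A, 0 of 4 in DCIS.COM, 1 of 4 for the difference of the effects, 3 of 5 between the lines with pLOC-empty and 3 of 5 with pLOC-*MALINC1*. For counts this small a bound of 1.5 times is wide, and single calls were gained or lost within it. Dropping the filter and repeating a trimmed-mean scaling gave the main fit again, so they added no check. Directions of small changes turned as follows, and the cause was not tested. One setting used library totals without *RN7SL1* and *RN7SL2*, which hold 8.22% to 15.7% of the reads. It also left out the authors' scaling factors, and the parts of these changes were not separated. With it the log2 fold change was -0.0085 for *ANXA2* in MCF10A and 0.028 for *PLAUR* in DCIS.COM. For *ANXA2* between the lines with pLOC-*MALINC1* it was 0.050. That scaling moved the median of all genes between the lines by 0.11 with pLOC-empty and 0.18 with pLOC-*MALINC1*. Quantile normalization gave *ANXA2* 0.36 and 0.43 between the lines with pLOC-empty and pLOC-*MALINC1*. *PLAUR* in DCIS.COM was -0.047 to 0.033 when a library was left out, with 0.016 without the second pLOC-empty and 0.033 without the first pLOC-*MALINC1* library. *PLAUR* between the lines with pLOC-empty was -0.0061 to 0.13, with -0.0061 without the first MCF10A library. A group with 1 library left is assumed to vary like the others.

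Samples of the same replicate number did not deviate together (correlation -0.067 to 0.038 between groups). With the replicate number as a block the counts were 4, 5, 4, 5 and 5 of the 6 genes, in the order above, and *PLAT* in DCIS.COM was then called (adjusted p = 0.00936). The planned tests with edgeR and DESeq2 were not run, the deposited unit being log2 CPM. Limma with voom weights on the recovered reads was run in their place, and it and the length of all annotated exons were added after seeing the data. Among the 6 genes and *SERPINB2*, depth was lowest for *SERPINB2* in DCIS.COM, with 16 to 60 reads per library.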

Other observations

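The relatives of *ANXA2* and *S100A16* were counted beside all genes, of which 21.5% rose and 18.1% fell in MCF10A and 16.4% rose and 16.7% fell in DCIS.COM. Of 11 other annexins analysed, 4 rose and 3 fell with *MALINC1* in MCF10A, and 2 rose and 3 fell in DCIS.COM, the latter near those shares. The annexins include *ANXA8* and *ANXA8L1*, whose levels moved together in both lines. Reads shared between these 2 genes were not looked for. Of 10 other S100 genes, 6 rose and 3 fell in MCF10A, and 4 rose and 2 fell in DCIS.COM. *S100A2*, a calcium-binding protein of basal epithelium, rose in MCF10A by 1.49 on the log2 scale (adjusted p = 1.22e-10), and *S100A9*, a subunit of calprotectin, by 1.89 (adjusted p = 1.33e-09). *S100A4* fell in DCIS.COM by 2.44 (adjusted p = 1.64e-11).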
